A study of Homo sapiens with 3 samples.

Results

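Gene expression in Caki-1 cells that received the control siRNA (si-Control) was described from 1 RNA-seq library, for 44571 of the 44591 genes of the deposited table. The members were all genes of that library, ordered by level and by gene type. Another 20 genes were left out because their listed values did not belong together, among them IL6, CDKN1A, IER3, BTG2, TYMS, EIF4EBP1, DUSP1, EGR1, CCNG1, TP53I3, TP53INP1, CCND1, NTHL1, BAK1, PML, FOXD1, ARID3A, GAMT and ABCC2. No level is given for any of the 20. Caki-1 is an established human clear cell renal cell carcinoma line, first grown from a skin metastasis, and is 1 line without the other cells of a tumour. The cells were kept in Dulbecco's modified Eagle's medium with 10% fetal bovine serum and were transfected with a non-targeting siRNA, at the 10 nmol/L given for siRNA in the general methods. RNA was taken after 48 h, ribosomal RNA was depleted, and a directional paired-end library was made. The series has 3 libraries, and those with siRNAs against RBCK1 were not compared here. The control library has no replicate, so no value below has a biological error.

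Levels are in RPKM, that is, reads per kilobase of gene length scaled to the library's total reads, so they can be compared between genes of different length within the library. The values fit a library of 36926834 counted reads, and the whole reads behind each gene were recovered from the decimals as the smallest number possible. Intervals are exact Poisson intervals (95%) on those reads and cover counting error only. A gene with 1 RPKM or more is called expressed below, which is a convention and not a test.

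Clear cell carcinoma arises in the epithelium of the proximal tubule, the nephron segment that takes back most of the filtered salt, sugar and amino acids. Tumour cells of this kind keep some kidney transcription factors, such as PAX8, and lose most transport functions. They can secrete chemokines, small proteins that attract leukocytes. ELR CXC chemokines carry the residues glutamate, leucine and arginine before their first cysteines, act on the receptors CXCR1 and CXCR2, and attract neutrophils. Their genes lie in a cluster on chromosome 4 and are textbook targets of NF-kB, the transcription factor that the linear ubiquitin ligase, of which HOIL-1 (RBCK1) is a subunit, helps to switch on.

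CXCL1 and CXCL8 of that cluster were among the 10 highest protein-coding genes of the library by RPKM, so the bases upstream of its genes are shown first. They are taken from RefSeq (GRCh38.p14) and cover the 110 bases before each gene's start, 5′ to 3′ on the gene's strand. Capitals mark GGAATTTCC, a form of the NF-kB site, and TATAAA, the core of a TATA box. The motifs were chosen after the levels were known. The expressed genes of the cluster are given first.
CXCL8 (chr4:73740459-73740568, + strand): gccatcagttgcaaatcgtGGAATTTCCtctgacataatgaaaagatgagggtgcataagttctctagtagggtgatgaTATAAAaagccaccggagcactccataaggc
CXCL6 (chr4:73836568-73836677, + strand): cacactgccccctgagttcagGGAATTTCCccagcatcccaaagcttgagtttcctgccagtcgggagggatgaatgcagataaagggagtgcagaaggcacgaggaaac
CXCL1 (chr4:73869283-73869392, + strand): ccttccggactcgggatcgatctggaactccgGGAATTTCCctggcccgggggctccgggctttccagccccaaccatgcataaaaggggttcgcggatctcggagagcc
CXCL5 (chr4:73998678-73998787, - strand): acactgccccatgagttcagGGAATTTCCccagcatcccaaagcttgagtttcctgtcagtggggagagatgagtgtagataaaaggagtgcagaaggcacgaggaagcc
CXCL3 (chr4:74038690-74038799, - strand): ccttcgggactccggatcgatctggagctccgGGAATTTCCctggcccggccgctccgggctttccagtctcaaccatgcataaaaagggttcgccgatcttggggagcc
CXCL2 (chr4:74099196-74099305, - strand): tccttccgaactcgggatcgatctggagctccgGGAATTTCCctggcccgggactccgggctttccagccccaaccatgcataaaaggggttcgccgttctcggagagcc

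The neighbours PF4V1 and PPBP are platelet chemokine genes of the same cluster that were below 1 RPKM. They were picked because their bases hold no GGAATTTCC, so this contrast with the expressed genes was fixed by the choice. CXCL10 and CXCL11, chemokine genes also below 1 RPKM, hold a match in the 250 upstream bases searched and are not printed.
PF4V1 (chr4:73853186-73853295, + strand): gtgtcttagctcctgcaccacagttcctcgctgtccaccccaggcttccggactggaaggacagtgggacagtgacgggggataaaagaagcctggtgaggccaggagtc
PPBP (chr4:73988191-73988300, - strand): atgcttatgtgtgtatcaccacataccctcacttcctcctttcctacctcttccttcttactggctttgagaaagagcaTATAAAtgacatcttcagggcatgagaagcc

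The match GGAATTTCC began at -91 in CXCL8, -89 in CXCL6, -90 in CXCL5, -78 in CXCL1 and CXCL3 and -77 in CXCL2, counted back from the start of the gene. It read in the direction of the gene in all 6, and in 5 of them, all but CXCL8, it was preceded by a further G. Over the 250 upstream bases of 35116 RefSeq promoters, 0.413% held GGAATTTCC on either strand and 10.7% held TATAAA. Of the 39 chemokine genes examined, 29 had a promoter in the table. Of these, 8 held GGAATTTCC on either strand, namely 6 of the 7 expressed genes and 2 of the 22 below 1 RPKM. The last 2 were CXCL10 (0.134 RPKM) and CXCL11, which was listed at 0, and their match was on the opposite strand. The expressed gene with a promoter but no match was CCL20, whose product attracts cells that carry CCR6. The upstream bases of CXCL1, CXCL2 and CXCL3 are close copies, as are those of CXCL5 and CXCL6. Their matches are therefore not independent. The motif was chosen with the levels known, and a link between match and level was not tested. A match is a run of letters and does not show that a factor binds there. Chemokine genes without a promoter in the table included PF4, CCL2, CCL5 and the expressed CX3CL1.

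The highest genes of the cluster, CXCL1, CXCL8 and CXCL6, reached the level of the mitochondrial and ribosomal protein genes. CXCL1 was at 4187 RPKM (4168 to 4206), the 7th highest of all protein-coding genes, and CXCL8, also called interleukin 8, was at 3383 RPKM (3369 to 3398), the 9th. CXCL6 followed at 1389 RPKM, CXCL5 at 988 RPKM and CXCL2 at 780 RPKM. CXCL3 was the lowest of the 6 at 70.6 RPKM (68.1 to 73.2). The intervals of these neighbours in the order of levels did not overlap. Together the 6 genes held 2.62% of the summed RPKM and 610945 recovered reads, or 1.72% of the reads recovered. CXCL1, CXCL2 and CXCL3 are close copies of each other, as are CXCL5 and CXCL6, so reads could have been divided between copies.

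In the order of the chromosome (hg19, chromosome 4, 74606223 to 74964997), the 358775 bases from CXCL8 to CXCL2 held 13 genes of the table. Of these, CXCL1, CXCL2, CXCL3, CXCL5, CXCL6 and CXCL8 were expressed and the other 7 were at most 0.473 RPKM. Among those 7, PPBPP1, HNRNPA1P55 and RN7SL218P are typed as pseudogenes and PPBPP2 as misc_RNA, and the rest are protein-coding. PF4V1 was at 0.473 RPKM, PPBP at 0.228 RPKM, and PF4, the platelet factor gene, was listed at 0. Protein-coding genes with very high levels and those near 0 thus alternated over short distances. Beyond CXCL2 came MTHFD2L, a mitochondrial folate enzyme, at 6.66 RPKM, and then 3 genes of the EGF family: EPGN at 3.20 RPKM, EREG at 530.4 RPKM and AREG at 196 RPKM.

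**Figure D1:**
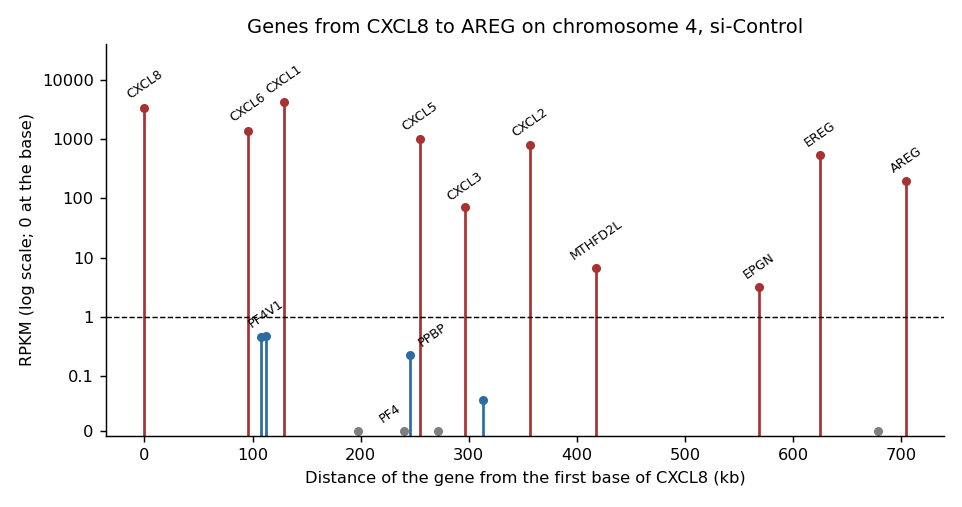
RPKM in the si-Control library (vertical axis, log scale, 0 drawn at the base) of the 18 genes from CXCL8 to AREG, by distance from the first base of CXCL8 in kb. Red marks genes at 1 RPKM or more, blue genes below 1 RPKM and grey genes listed at 0. The 6 expressed CXC chemokine genes stand between 70.6 and 4187 RPKM, with PF4V1, PF4 and PPBP among them below the dashed line at 1 RPKM.

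The rest of the chemokine family was low or at 0. Of the 39 chemokine genes examined, 8 were expressed and 20 were listed at 0. Besides the 6 expressed CXC genes the expressed members were CCL20 at 20.5 RPKM (18.9 to 22.1) and CX3CL1, fractalkine, at 4.42 RPKM. The 6 expressed CXC genes made up 99.7% of the summed RPKM of the family. CCL2, the monocyte chemokine, was at 0.145 RPKM, CCL5 at 0.392 RPKM and CXCL12 at 0.123 RPKM. The interferon-induced CXCL9 and CXCL11 were listed at 0.

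Across the library, 12454 of 44571 genes were expressed, 25423 were above 0 and 19148 were listed at 0. A listed 0 need not mean that a transcript was missing, since EIF4A1, a translation factor that every cell needs, was listed at 0 too. Of the 19213 protein-coding genes 10774, or 56.1%, were expressed, and this share is the background for the lists below. The median over all protein-coding genes was 2.18 RPKM, and over the expressed ones 9.99 RPKM. Of the expressed protein-coding genes 10% were below 2.08 RPKM, 10% were above 55.7 RPKM and 1% were above 467 RPKM. Of the protein-coding genes, 3419 were above 0 but below 0.1 RPKM, 2242 between 0.1 and 1 RPKM and 5388 from 1 to 10 RPKM. The range below 0.1 RPKM reached down to 0.00132 RPKM (NTRK2, 1 read). It is wider on a log scale than the range from 0.1 to 1 RPKM, so their counts are not directly comparable. A further 4872 were between 10 and 100 RPKM, 474 were between 100 and 1000 RPKM and 40 were at 1000 RPKM or more.

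**Figure D2:**
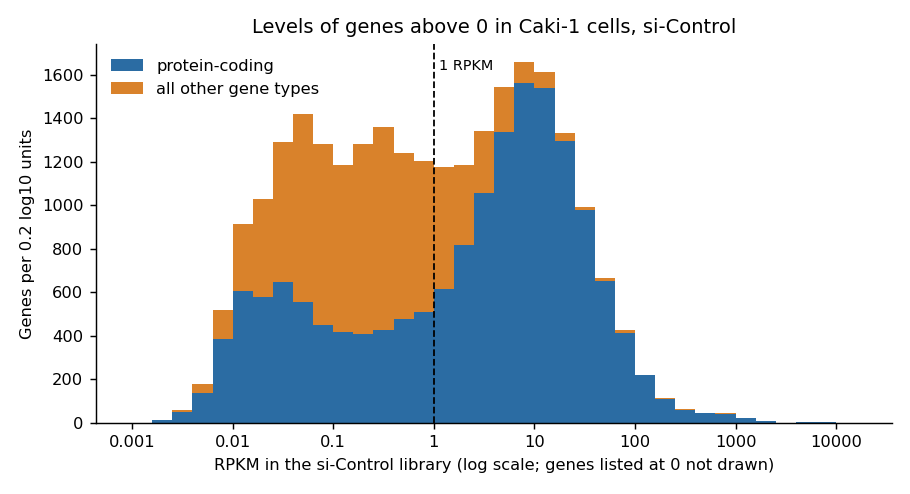
Number of genes (vertical axis) per 0.2 log10 units of RPKM (horizontal axis, log scale) in the si-Control library, for protein-coding genes (blue) and all other gene types stacked on them (orange). Genes listed at 0 are not drawn. Protein-coding genes form a broad peak near 10 RPKM and a lower one below 0.1 RPKM, while other types lie mostly below the dashed line at 1 RPKM.

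The signal was concentrated in a small share of the genes. The 10 highest genes held 15.4% of the summed RPKM, the 40 highest 26.4% and the 100 highest 37.2%. It took 295 genes to reach 50% and 4732 genes to reach 90%. The 40 highest protein-coding genes, all at 1035 RPKM or more, were 13 genes of the mitochondrial genome, 8 cytosolic ribosomal protein genes, 3 chemokine genes and 16 others. Of their 39 neighbouring pairs in the order of levels, 14 had overlapping intervals, among them each pair from NPM1 down to SAA1.

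The highest gene of the library was FTH1, the heavy chain of the iron store ferritin, at 10033 RPKM (10004 to 10062). FTL, the light chain, stood at 4120 RPKM (4098 to 4143), 8th among protein-coding genes. The 2 ferritin genes together held 3.44% of the summed RPKM. The transferrin receptor TFRC, which brings iron into the cell, was at 109.8 RPKM.

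FN1, which encodes the matrix protein fibronectin, was at 2228 RPKM (2223 to 2233). Its implied length was 8993 bases. It had the most recovered reads of any gene, 739976, or 2.09% of the total. This was more than the 6 expressed CXC chemokine genes together. GDF15, a secreted stress cytokine, was at 1680.5 RPKM, and SAA1, an acute-phase apolipoprotein, at 1059 RPKM. AKR1B1, an aldose reductase, was at 1209 RPKM, and the autophagy receptor SQSTM1 at 1125 RPKM. MT2A, a metal-binding metallothionein, was at 1116 RPKM, NPM1, a nucleolar protein, at 1127 RPKM, and RACK1, a ribosome-bound scaffold, at 1088 RPKM.

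**Figure D3:**
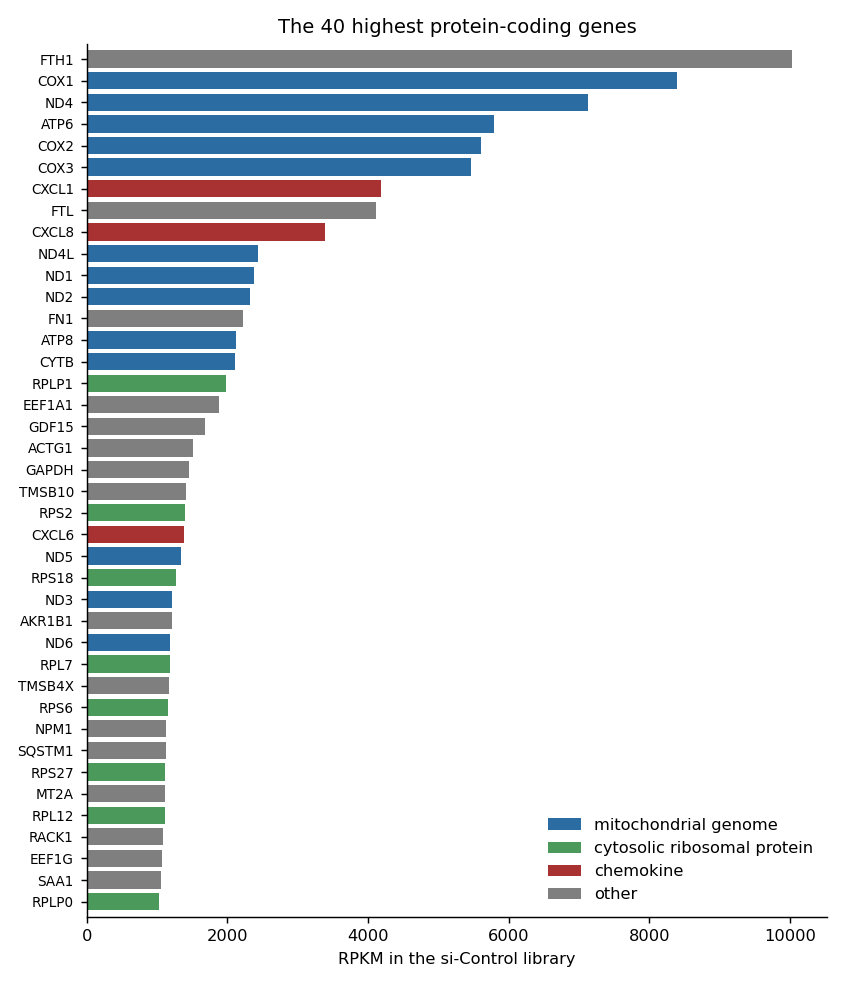
RPKM (horizontal axis, linear from 0) of the 40 highest protein-coding genes in the si-Control library, 1 bar per gene, coloured by class. FTH1 leads at 10033 RPKM, the 13 mitochondrial genes span 1183 to 8399 RPKM, and CXCL1, CXCL8 and CXCL6 are the red bars.

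All 13 protein-coding genes of the mitochondrial genome, which encode subunits of the respiratory chain and ATP synthase, were at 1000 RPKM or more. COX1 was the highest at 8399 RPKM, then ND4 at 7125 RPKM and ATP6 at 5798 RPKM, and ND6, which lies on the other strand, was the lowest at 1183 RPKM. They held 11.5% of the summed RPKM and 4.85% of the recovered reads. ATP6 and ATP8 overlap, as do ND4 and ND4L, so their levels are not independent. The mitochondrial rRNA genes RNR2 and RNR1 were at 9489 and 1140 RPKM. Of the 22 mitochondrial tRNA genes 13 were listed at 0 and 5 were at 1 RPKM or more, of which TRNP was the highest at 332 RPKM.

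Of 87 cytosolic ribosomal protein genes, 85 were expressed, 72 of them at 100 RPKM or more, with a median of 489 RPKM. They held 10.7% of the summed RPKM and 3.83% of the recovered reads, which are minimum numbers. RPLP1 was the highest at 1979 RPKM, followed by RPS2 at 1396 RPKM and RPS18 at 1271 RPKM. Processed copies of these genes are frequent, so single values are uncertain. Of 6 translation elongation factor genes all were expressed, led by EEF1A1 at 1878 RPKM and EEF1G at 1072 RPKM. EEF1A2, whose expression is usually limited to muscle and nerve, was at 67.4 RPKM.

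Glycolytic enzymes were also high, with 17 of 18 genes expressed, 10 of them at 100 RPKM or more, and a median of 179 RPKM. GAPDH was at 1461 RPKM, LDHA at 881 RPKM, PKM at 631 RPKM, ENO1 at 618 RPKM and LDHB at 540 RPKM. TPI1 (279 RPKM), ALDOA (276 RPKM) and PGK1 (271 RPKM) were not separated from their neighbours by the counting error. Of 21 cytoskeleton genes 20 were expressed, led by ACTG1 at 1518 RPKM and ACTB at 985 RPKM. The thymosins TMSB10 and TMSB4X, which bind actin monomers, were at 1408 and 1169.9 RPKM, and S100A6, a calcium-binding protein, was at 799 RPKM.

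Protein-coding genes held 94.4% of the summed RPKM and 96.7% of the recovered reads. The rRNA rows came next with 2.58% of the RPKM, most of it RNR2, and 17 of their 19 genes were listed at 0. The lncRNA rows held 1.07%, with 463 of 4452 genes expressed. GAS5 was the highest lncRNA at 707 RPKM, then SNHG5 (252 RPKM), ZFAS1 (249.7 RPKM), SNHG1 (248 RPKM) and SNHG8 (97.6 RPKM). All 5 host small nucleolar RNAs in their introns. The nuclear lncRNAs NEAT1 and MALAT1 were at 80.9 and 16.2 RPKM, and PVT1 was at 14.3 RPKM. H19 was listed at 0 and HOTAIR was at 0.158 RPKM.

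In other noncoding types most rows were below 1 RPKM. Of lincRNA rows 173 of 5414 reached 1 RPKM, of antisense rows 274 of 4004, and of pseudogenes 218 of 5999. The highest antisense row, ENSG00000258395.1 (hg19, chromosome 2, 113998307 to 113998987), was at 27.8 RPKM and lies within PAX8 on the opposite strand, where PAX8 itself was at 124 RPKM. The kit was directional, but whether strand was used in counting is not given in the sources used here, so reads of the row and of PAX8 may not have been told apart. The highest pseudogenes, ITGB1P1 (87.7 RPKM), EEF1A1P5 (78.7 RPKM) and RPS2P5 (59.7 RPKM), are near-identical copies of genes that were far higher, and their levels are uncertain.

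Most rows of small RNAs at 1 RPKM or more overlapped other genes. Of the 136 snoRNA rows at 1 RPKM or more, 125 (91.9%) overlapped another gene on the same strand, as did 79 of 113 miRNA rows (69.9%), against 19.9% of expressed protein-coding genes. SNORD80 (74.4 RPKM), SNORD44 (44.0 RPKM) and SNORD47 (27.4 RPKM) lie in GAS5, and SNORD31 (37.8 RPKM) lies in SNHG1. MIR5047 (348 RPKM) and MIR3064 (91.5 RPKM) lie in DDX5 (162 RPKM), and MIR3189 (47.9 RPKM) lies in GDF15. The highest miRNA row, MIR6087, was at 395 RPKM from 714 reads and overlapped no other gene on either strand. These rows count fragments of a library for long RNA and do not measure mature small RNAs. Small structural RNAs that are abundant in cells were near the limit, with RN7SK at 1.14 RPKM, RMRP at 1.21 RPKM and RPPH1 at 1.43 RPKM, while RN7SL2 was at 99.99 RPKM.

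Kidney identity was examined with markers of the nephron. Of 20 kidney transcription factor genes 7 were expressed, with a median of 0.304 RPKM. PAX8, the lineage factor used in pathology to recognise renal tumours, was at 124 RPKM (123 to 126), 407th among protein-coding genes. HNF4G, TFAP2A, EYA1, SALL1 and GATA3 lay between 1.23 and 6.53 RPKM. PAX2, the paralogue that acts with PAX8 in the developing kidney, was at 0.00640 RPKM from 1 read. HNF4A, which drives proximal tubule maturation, was at 0.00990 RPKM from 2 reads, WT1 was at 0.00817 RPKM from 1 read, and SIX2, the nephron progenitor factor, was listed at 0.

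Of 34 proximal tubule genes 10 were expressed and the median was 0.0575 RPKM. The highest were surface and injury markers: ANPEP, the brush-border aminopeptidase CD13, at 89.3 RPKM (87.7 to 90.9), VCAM1 at 81.6 RPKM (79.9 to 83.2) and HAVCR1, the injury marker KIM-1, at 58.8 RPKM (57.1 to 60.7). UGT2B7, a glucuronosyltransferase with close paralogues, was at 28.8 RPKM and GGT1, likewise with close copies, at 5.52 RPKM. Among the transporters SLC17A3, an organic anion transporter, was at 2.68 RPKM (2.30 to 3.10), the sodium bicarbonate cotransporter SLC4A4 at 2.23 RPKM (2.06 to 2.41) and SLC17A1 at 0.485 RPKM. Other genes for transport were lower: the sodium-glucose transporter SLC5A2 was at 0.0238 RPKM, the phosphate transporter SLC34A1 at 0.0156 RPKM, the organic anion transporters SLC22A6 and SLC22A8 at 0.0122 and 0.0496 RPKM, and the water channel AQP1 at 0.00929 RPKM. The endocytic receptor LRP2, megalin, was listed at 0, while its partner CUBN was at 0.368 RPKM. The gluconeogenic genes FBP1 and G6PC1 were listed at 0, and PCK1 was at 0.0101 RPKM.

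Genes of the other segments were almost all below 1 RPKM. This held for all 6 distal tubule genes (highest 0.0535 RPKM), all 8 principal cell genes (0.475 RPKM) and all 6 intercalated cell genes (0.126 RPKM) of the collecting duct. In the loop of Henle list CLDN16 was the 1 expressed gene of 8, at 1.5 RPKM, and UMOD, uromodulin, was at 0.0105 RPKM. Among 7 podocyte genes SYNPO was at 8.86 RPKM, and NPHS1, nephrin, was at 0.0377 RPKM.

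**Figure D4:**
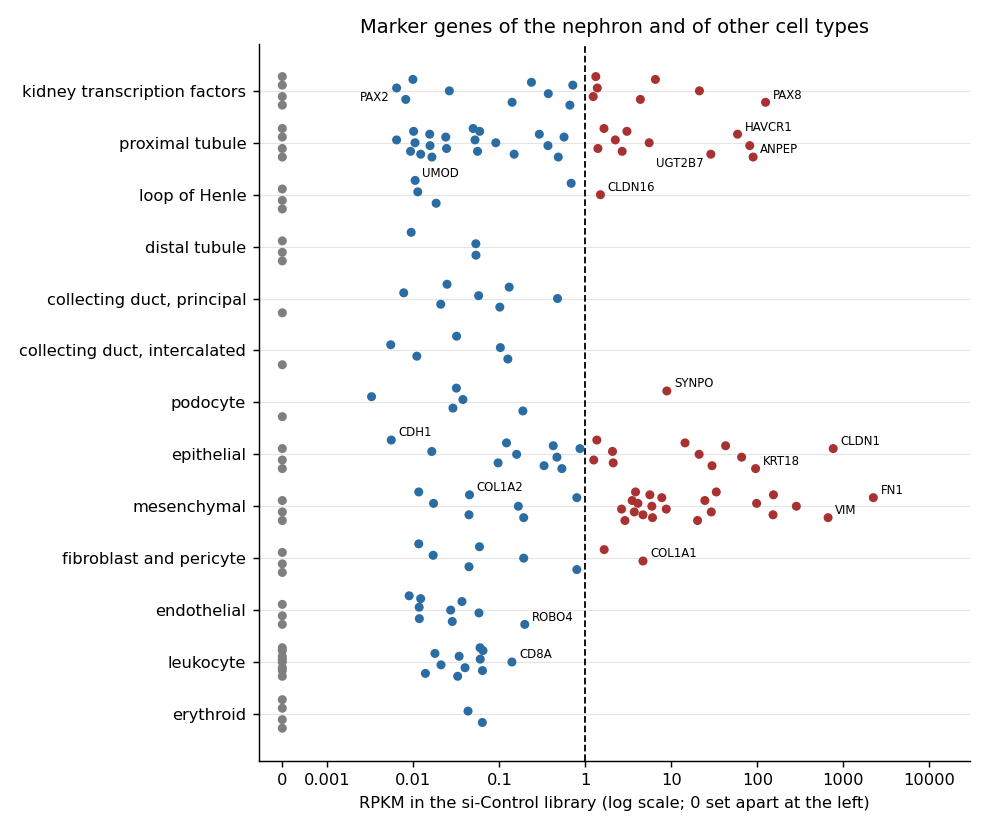
RPKM in the si-Control library (horizontal axis, log scale, 0 set apart at the left) of marker genes, 1 row per list and 1 point per gene. Red points are at 1 RPKM or more, blue points are below the dashed line at 1 RPKM and grey points are listed at 0. Kidney factors and proximal tubule genes spread over the whole range with PAX8 and ANPEP on the right, mesenchymal genes lie mostly above the line, and no endothelial, leukocyte or erythroid marker reaches it.

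Of 27 genes linked to clear cell carcinoma and hypoxia, 23 were expressed, with a median of 17.9 RPKM. LDHA was followed by PLIN2, which coats lipid droplets, at 319 RPKM, the oxygen-regulated factor HIF1A at 171 RPKM, the lactate exporter SLC16A3 at 127 RPKM, the mitophagy receptor BNIP3 at 83.9 RPKM and NNMT, a nicotinamide methyltransferase, at 68.2 RPKM. EPAS1, which encodes HIF-2 alpha, was at 58.9 RPKM, and VHL, whose product marks both factors for degradation, was at 11 RPKM (9.52 to 12.8). Well-known tumour markers of the list differed widely. CD70, a ligand of the TNF family, was at 30.8 RPKM (29.7 to 31.9) and ANGPTL4 at 17.9 RPKM (16.9 to 18.9), while CA9 was at 0.0174 RPKM from 1 read, EGLN3 at 0.0398 RPKM, NDUFA4L2 at 2.12 RPKM (1.71 to 2.60), and ENPP3 and ESM1 were listed at 0. Clear cell renal cell carcinoma, the tumour type given above for the line, thus stood beside PAX8 at 124 RPKM, CD70 at 30.8 RPKM and a CA9 of 1 read.

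Of 24 epithelial genes 11 were expressed, with a median of 0.700 RPKM, and of 32 mesenchymal genes 22, with a median of 4.38 RPKM. CDH1, the epithelial cadherin, was at 0.00554 RPKM from 1 read, and CDH2, the neural cadherin that is also present in proximal tubule, was at 24.5 RPKM (23.8 to 25.3). EPCAM was at 0.331 RPKM, the kidney cadherins CDH6 and CDH16 were at 0.866 and 0.468 RPKM, and the epithelial regulators GRHL2, OVOL1 and RAB25 were listed at 0. Other epithelial genes were high. CLDN1, a tight junction protein, was at 762 RPKM (757 to 766), 64th among protein-coding genes, the simple-epithelium keratins KRT18 and KRT8 were at 95.3 and 65.6 RPKM, MAL2, a protein of apical transport, was at 42.7 RPKM, and JUP was at 29.7 RPKM. The epithelial transcription factor ELF3 was at 21.0 RPKM (20.2 to 21.9). KRT7 was at 2.07 RPKM and KRT19 at 0.423 RPKM.

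On the mesenchymal side, the intermediate filament gene VIM was at 664 RPKM (658 to 669.6), and the actin-binding protein gene CALD1 was at 29.1 RPKM. The transcription factors that repress CDH1 were expressed at low to moderate levels, ZEB2 at 8.72 RPKM, ZEB1 at 7.75 RPKM, SNAI1 at 5.63 RPKM, SNAI2 at 3.83 RPKM (3.41 to 4.29) and TWIST1 at 3.71 RPKM (3.24 to 4.22). Fibrillar collagen genes typical of fibroblasts were low, with COL1A1 at 4.68 RPKM, COL1A2 at 0.0450 RPKM and COL3A1 at 0.0444 RPKM. THY1, FAP and POSTN were listed at 0.

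Markers of other cells were at or near 0. None of the 19 leukocyte, 12 endothelial or 6 erythroid markers reached 1 RPKM. The highest were CD8A at 0.140 RPKM, ROBO4 at 0.198 RPKM and ALAS2 at 0.0635 RPKM, and the defining genes PTPRC (CD45), CD3E, CDH5 and HBA1 were listed at 0. Of 11 fibroblast and pericyte markers 2 were expressed, COL1A1 and RGS5 (1.66 RPKM). In a bulk sample, few cells with a transcript and little of it per cell cannot be told apart. Of 19 genes of DNA replication and mitosis all were expressed, from 7.84 RPKM for CCNE1 to 31.9 RPKM for PLK1 and BIRC5, and MKI67 was at 11.9 RPKM.

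Besides the chemokines, 18 of 50 cytokine genes were expressed and 17 were listed at 0. GDF15 was followed by CSF2 (GM-CSF), a growth factor of granulocytes and macrophages, at 403 RPKM (395 to 410.1), SPP1 (osteopontin) at 289.7 RPKM, LIF at 123 RPKM, IL18 at 84.5 RPKM and IL1A at 53.9 RPKM. IL1B was at 3.56 RPKM (3.08 to 4.09), far below IL1A, and TNF was at 0.0323 RPKM. IFNG, IL2, IL4 and IL10, products of lymphoid cells, were listed at 0. MIF was listed at 0 as well, but a listed 0 need not mean that a transcript was missing.

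Of 71 growth factor genes 31 were expressed, with a median of 0.726 RPKM. EREG and AREG were among the highest, with STC2, a stanniocalcin, at 353 RPKM, SEMA3C, a semaphorin, at 177 RPKM, INHBA, the activin A subunit, at 176 RPKM, and FGF2 at 143 RPKM. DKK3 was at 90.2 RPKM and VEGFA, an endothelial growth factor, at 63.7 RPKM. TGFB1 was at 13 RPKM, and the hormone EPO was listed at 0.

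Matrix genes had the largest expressed share of the secreted lists examined, with 37 of 41 at 1 RPKM or more and a median of 21.1 RPKM. After FN1 came IGFBP7 at 739 RPKM, CCN1 at 420.4 RPKM, TGFBI at 284 RPKM, LOXL2, a collagen cross-linking enzyme, at 174 RPKM, SPARC at 152 RPKM, and the laminin chains LAMC1 and LAMB1 at 143 and 118 RPKM. The basement membrane collagens COL4A2 and COL4A1 were at 117 and 51.7 RPKM. Of 30 secreted proteases and inhibitors 19 were expressed, led by CTSD, a lysosomal protease, at 629 RPKM. TFPI2 was at 229 RPKM, TIMP2 at 175 RPKM and the urokinase gene PLAU at 139 RPKM. MMP2 was at 6.03 RPKM, MMP9 at 0.672 RPKM, and TIMP3 was listed at 0.

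Of 58 receptor tyrosine kinase genes 19 were expressed, with a median of 0.0693 RPKM, and few of them were high. MET, the receptor of hepatocyte growth factor, led with 144 RPKM (142 to 145), then AXL at 98.0 RPKM, EPHA2 at 69.5 RPKM, RYK at 43.7 RPKM and EGFR at 30.2 RPKM (29.6 to 30.9). Of their 18 neighbouring pairs, 3 had overlapping intervals. FGFR4 and FGFR1 were at 23.0 and 20.8 RPKM and ERBB2 was at 9.57 RPKM. KIT, RET, FGFR2 and ERBB4 were at most 0.00523 RPKM, and the endothelial receptors FLT1 and KDR were at 0.00902 and 0.00894 RPKM.

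Of 26 integrin genes 13 were expressed. ITGB1, the common beta chain, was at 679 RPKM, and ITGA3, its partner for binding laminin, at 475 RPKM. The fibronectin and vitronectin receptor chains ITGAV, ITGA5, ITGB5 and ITGB3 were at 93.2, 51.9, 26.3 and 25.1 RPKM. The leukocyte beta chain ITGB2 was listed at 0.

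Of 60 cytokine receptor genes 39 were expressed, with a median of 4.80 RPKM. TNFRSF12A, the receptor of TWEAK, led at 258 RPKM, followed by the death receptor TNFRSF10B at 106 RPKM, LTBR at 68.0 RPKM, IL6ST at 40.1 RPKM and OSMR at 36.0 RPKM. The interferon receptors IFNGR1, IFNGR2, IFNAR1 and IFNAR2 lay between 5.91 and 17.6 RPKM. Lymphoid receptors such as IL2RB and IL2RG were listed at 0.

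Of 75 other surface receptor genes 52 were expressed, led by the tetraspanins CD63 and CD151 at 204 and 169.9 RPKM and the hyaluronan receptor CD44 at 154 RPKM. The complement inhibitors CD46, CD59 and CD55 were at 82.6, 59.2 and 58.7 RPKM. CD276 (B7-H3) was at 35.3 RPKM, CD47 at 26.4 RPKM and CD274 (PD-L1) at 1.34 RPKM (1.15 to 1.54). The chemokine receptors CXCR4, ACKR3 and CCR2 were listed at 0. Of 48 nuclear receptor genes 23 were expressed, none above 25.4 RPKM. NR1H2, ESRRA and NR1D2 were the highest, PPARG was at 14.9 RPKM and the glucocorticoid receptor NR3C1 at 13.6 RPKM. The sex steroid receptors ESR1 and PGR were at 0.0944 and 0.287 RPKM.

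Ligand and receptor genes of 14 groups, paired after the levels were known, are given side by side. In 10 groups both sides had an expressed gene, and in 4 no receptor gene reached 1 RPKM. In the HGF and MST1 group the expressed genes, MST1 at 1.60 RPKM and MET, are not partners, and the MST1 receptor gene MST1R was at 0.0299 RPKM. For the ELR CXC chemokines, CXCR2 was at 0.00921 RPKM from 1 read and CXCR1 was listed at 0. For GM-CSF, CSF2RA was at 0.389 RPKM and CSF2RB at 0.0112 RPKM. For CSF1 (38.4 RPKM), the receptor CSF1R was at 0.0597 RPKM, and for PDGFC (32.0 RPKM), PDGFRB was at 0.796 RPKM and PDGFRA at 0.0170 RPKM.

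In 2 groups the receptor gene was the higher. MET stood at 144 RPKM beside HGF at 0.00363 RPKM from 1 read. AXL stood at 98.0 RPKM beside GAS6 at 23.3 RPKM and PROS1 at 3.61 RPKM. For the EGF family, the ligands TGFA, HBEGF and NRG1 were at 41.5, 54.4 and 21.6 RPKM beside EREG and AREG, and EGF itself was at 0.684 RPKM. For VEGFA, VEGFB and VEGFC (63.7, 28.3 and 42.6 RPKM) the neuropilins NRP1 and NRP2 were at 43.6 and 14.3 RPKM, while the kinase receptors were near 0. For LIF, IL6ST was at 40.1 RPKM and LIFR at 2.53 RPKM. For osteopontin, CD44, ITGAV and ITGB3 were all expressed.

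**Figure D5:**
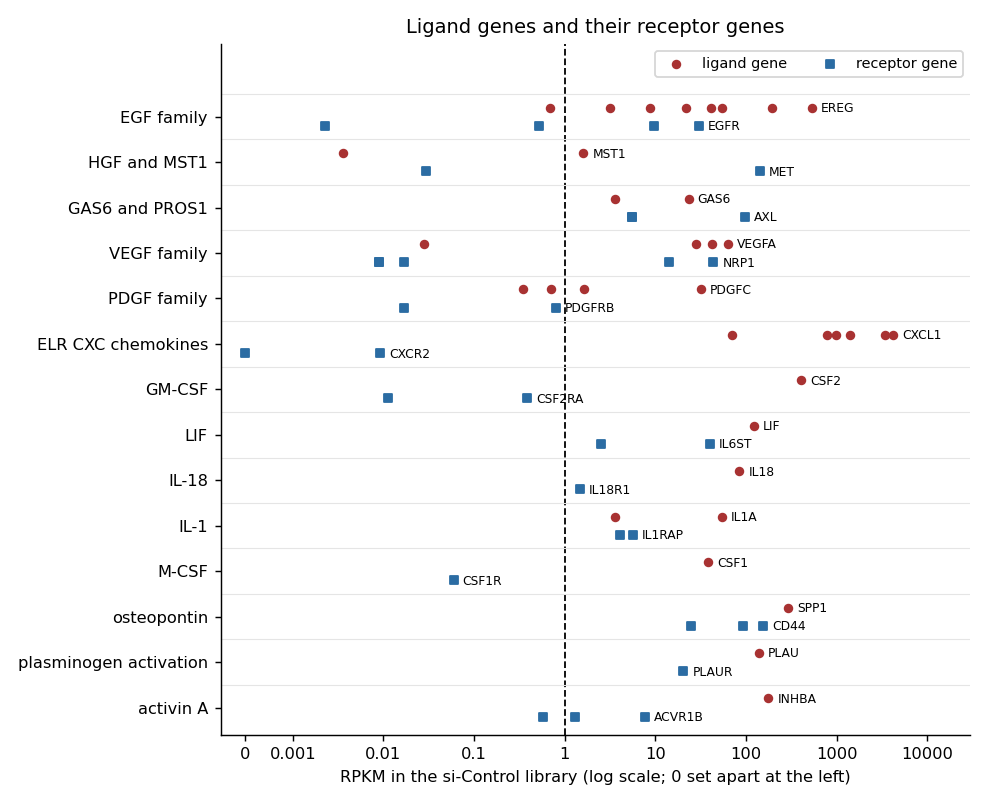
RPKM in the si-Control library (horizontal axis, log scale, 0 set apart at the left) of ligand genes (red circles) and receptor genes (blue squares) in 14 groups, with the highest gene of each side named. The dashed line marks 1 RPKM. The ELR CXC chemokines, GM-CSF, M-CSF and PDGF groups have every receptor gene left of the line, and MET and AXL are the receptors that exceed every ligand gene of their group.

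The MHC class I genes, which present peptides to T cells, were all expressed, with B2M at 803 RPKM, HLA-B at 212 RPKM and HLA-C at 113 RPKM. Reads of the HLA genes may be divided among close copies. Of 8 MHC class II genes 3 were expressed, CD74 at 11.3 RPKM, HLA-DPA1 at 2.84 RPKM and HLA-DPB1 at 1.02 RPKM. HLA-DRA was listed at 0 and the class II activator CIITA was at 0.00576 RPKM.

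The genes of the linear ubiquitin ligase were all expressed in the control cells. RBCK1 (hg19, chromosome 20, 388694 to 412783, + strand), the target of the siRNAs in the other libraries, was at 33.3 RPKM (32.4 to 34.2), 1898th among protein-coding genes. Of its partners in the linear ubiquitin ligase, SHARPIN was at 19.8 RPKM (18.7 to 20.9) and RNF31 (HOIP), the catalytic subunit, at 5.61 RPKM (5.22 to 6.03). The deubiquitinases that remove linear chains, CYLD and OTULIN, were at 8.67 and 4.47 RPKM. The ubiquitin ligase gene MDM2 was at 26.0 RPKM (25.4 to 26.6) and its relative MDM4 at 9.02 RPKM (8.71 to 9.33). The intervals of MDM4 and CYLD overlapped.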

How the data were processed

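RNA from Caki-1 cells was sequenced in 3 libraries, 1 per siRNA, and the si-Control library was described. The authors deposited 1 table of RPKM values, and its coordinates are given on hg19, the build named in the submitters' processing notes. The notes also list TopHat2, HTSeq, FastQC and Trimmomatic, with no role or order. The authors' table further holds columns of their own comparison (a control and a treated value, a fold change, p- and q-values). Of these, the treated value alone was read, to check rows, and none is reported.

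The library total was found as the number that makes RPKM times span whole for genes spanning up to 200 bases (580 of 586 genes, within 0.02 of a whole read). For each gene the smallest length, up to 50000 bases, that gives whole reads in all 3 libraries was searched, and 12457 of the 12473 genes at 1 RPKM or more had one. The recovered reads of the genes kept sum to 96.0% of the total. They are minimum numbers, so intervals may be too wide. Mitochondrial genes took their span as length where it was a multiple of that found.

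The fold change column was not used to choose rows. A row was left out when its si-Control value was not a number (1 row), when the treated value was not the mean of the other 2 libraries (12 rows) or when no whole reads could be found at 1 RPKM or more (16 rows). Of these, 9 rows failed both of the last checks, which leaves 20 rows. In 27 rows the symbol had turned into a date, and 2 names stood on more than 1 row each. EIF4A1, needed by every cell, was listed at 0. Of the 2778 protein-coding genes listed at 0, 886 (31.9%) overlapped another gene, against 51.2% of those at 1 RPKM or more. Whether overlap led to a listed 0 for any gene was not tested.

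The members, the 34 gene lists (written from general knowledge, 820 symbols, 817 of them kept and 3 among the rows left out) and the motifs were chosen with earlier results of these data known. Genes named in the text are the 40 highest of all genes and of protein-coding genes, the 5 highest of each type with 10 or more genes at 1 RPKM, list members, ribosomal protein genes and mitochondrial genes. Others (DDX5, MTHFD2L, PF4V1, PPBPP1, PPBPP2, HNRNPA1P55, RN7SL218P) were named after their values were seen, because they overlap or neighbour these. EIF4A1 was also named then, because every cell needs it. No test was run, because 1 library gives no replicate error. Alternatives were other limits on the level, other units and other sets of genes. The read recovery was tested on simulated data. The scripts ran on Python 3.11.15 with pandas 2.3.3 and numpy 2.4.6 for the tables, scipy 1.17.1 for intervals and matplotlib 3.10.9 for plots. Lists are given by counts, medians and selected members, and the other members are not reported here.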

Additional observations from a re-analysis of the deposited data

How the results depend on the processing

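The number of expressed genes depended on the limit: against 12454 at 1 RPKM, it was 18719 at 0.1 RPKM, 8014 at 5 RPKM and 5549 at 10 RPKM, and it was within 1.5 times the reported number at 0.5 RPKM, with protein-coding genes alone and with the left-out rows kept. The protein-coding share of 94.4% became 96.7% of the recovered reads. Of the RPKM it was 95.1% without genes spanning up to 200 bases and 96.6% without mitochondrial genes. Each value lay outside a 95% binomial interval that treated 94.4% as a share of the recovered reads. That interval is not the counting error of a share of RPKM, and the alternatives are other quantities or sets of genes. The number of genes that hold 50% of the total, 295 by RPKM, became 509 without mitochondrial genes and 715 by recovered reads, which weight long genes and are minimum numbers, and it stayed within 1.5 times with protein-coding genes alone and without short genes. Of 34 gene lists, the number of expressed members stayed within 1.5 times for 23 lists at 0.1 RPKM, 27 at 5 RPKM and 18 at 10 RPKM. Of 796 named protein-coding genes above 0, the rank stayed within 1.5 times for 669 when all genes were ranked and for 525 by recovered reads. Among protein-coding genes that overlap no other gene, which are fewer, it stayed so for 14 of 420. Of 28 list medians, 9 stayed within 1.5 times when taken over expressed members alone. Recovered reads double where the true length is 2 times the smallest, which the span allows for 725 named genes. No paired analysis was possible because the values come from 1 library and no test. Without a replicate, differences between cultures are not known, and genes with fewer than about 10 reads are known only to be low.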
